A study of Mus musculus with 2 samples.

Results

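The transcripts described here are the 8662 of 110003 transcripts in a pooled mouse list that carry a name starting with U and have exactly 2 exons, and so a single intron. They were chosen by name and structure alone. Aligned blocks separated by a gap under 30 bp were joined into 1 exon, and transcripts with 2 exons after joining were kept. They make up 7.87% of the pool (Wilson 95% interval 7.72 to 8.03%) and 9.94% of the 87129 U transcripts, beside 8063 U transcripts with 3 or more exons and 70404 with 1 exon. The sources used here do not say what U means, or FT, BROAD and WHITEHEAD, the prefixes of the other names.

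V6.5 cells, which are pluripotent stem cells derived from mouse embryos, were grown on irradiated fibroblasts and gave the RNA, so the RNA can hold a feeder cell share. After DNase treatment, 1 strand-specific library was made from polyadenylated RNA and 1 from RNA depleted of ribosomal RNA, and the cells were otherwise the same. The deposited list does not separate the 2 libraries and gives no read count, so the depth is unknown, no comparison between the libraries was made, and expression of stem cell or fibroblast markers could not be measured. Features of 1 list are not replicates, so each interval and p-value below describes how features are arranged in it and covers counting error only.

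Splicing joins the end of an upstream exon to the start of a downstream one, and an RNA with a single intron carries 1 such junction. Many long noncoding RNAs have few exons, and a number of them start close to the start of a protein-coding gene and run away from it on the other strand, an arrangement called divergent. Others overlap a gene on the opposite strand, host small RNAs in their introns, or act in imprinting and in the nucleus.

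The junction letters below show known noncoding genes for which a U transcript matched an annotated transcript in all 3 lengths, those of its 5′ exon, intron and 3′ exon. Each line gives the last 30 bases of the 5′ exon in lower case and the first 30 bases of the 3′ exon in capitals, from the GENCODE M21 transcript (GRCm38), as DNA letters 5′ to 3′.
Hottip (U006871-1): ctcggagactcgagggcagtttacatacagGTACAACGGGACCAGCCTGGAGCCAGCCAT
Hottip (U006871-2): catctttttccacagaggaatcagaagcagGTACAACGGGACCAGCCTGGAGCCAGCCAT
Airn (U017499-1): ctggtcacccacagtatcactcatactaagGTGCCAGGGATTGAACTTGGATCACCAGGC
Airn (U017499-3): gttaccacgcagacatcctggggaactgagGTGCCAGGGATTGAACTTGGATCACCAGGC
Hotair (U036703-1): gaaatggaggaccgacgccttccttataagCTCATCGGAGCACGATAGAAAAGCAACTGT
Lncenc1 (U043365-2): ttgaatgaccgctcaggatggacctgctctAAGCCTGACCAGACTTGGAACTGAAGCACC
Panct2 (U000652-2): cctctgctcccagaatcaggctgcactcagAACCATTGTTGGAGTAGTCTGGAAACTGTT
Platr23 (U041844-1): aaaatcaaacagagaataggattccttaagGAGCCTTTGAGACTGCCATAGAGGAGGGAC
The pairs of Hottip and Airn lines are printed because each pair has 1 set of capitals behind 2 sets of lower-case letters, that is, 1 shared 3′ splice site joined to 2 different 5′ exons. Platr23 was added after the values were seen, since it lies beside a coding gene described below.

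The next letters lie between the annotated starts of a noncoding RNA found among the 2-exon U transcripts and of a coding gene that runs the other way. They are RefSeq sequence (GRCm38.p6) on the strand of the coding gene, with each CG pair in capitals. They were picked after the values were seen, from the 98 pairs in which 1 RefSeq promoter window holds both starts on the chromosomes considered.
H3f3aos to H3f3a: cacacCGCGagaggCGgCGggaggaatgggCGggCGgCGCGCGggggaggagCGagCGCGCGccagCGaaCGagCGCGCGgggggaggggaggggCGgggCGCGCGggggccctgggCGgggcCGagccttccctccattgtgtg
Gm14230 to Tgif2: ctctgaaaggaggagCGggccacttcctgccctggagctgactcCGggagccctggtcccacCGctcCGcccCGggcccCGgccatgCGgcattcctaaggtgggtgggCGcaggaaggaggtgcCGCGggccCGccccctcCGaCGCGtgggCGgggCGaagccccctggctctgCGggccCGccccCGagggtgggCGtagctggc
2610016A17Rik to Dmrt2: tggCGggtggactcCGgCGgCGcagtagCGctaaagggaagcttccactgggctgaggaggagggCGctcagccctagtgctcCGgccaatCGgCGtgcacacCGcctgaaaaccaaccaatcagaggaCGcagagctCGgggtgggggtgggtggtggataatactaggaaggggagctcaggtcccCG
The stretch before H3f3a is at chr1:180813632-180813776 and holds 24 CG pairs in 145 bases, or 16.6 per 100 bases. The stretch before Tgif2, chr2:156839800-156840007, has 9.62 per 100 bases, and the one before Dmrt2, chr19:25672222-25672411, has 6.84. Over all 32851 RefSeq promoter windows, which run from 250 bases before to 50 bases after a start, the median is 2.33 per 100 bases.

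The introns of the 2-exon U transcripts were short. Their 8617 distinct introns had a median length of 679 bp (quartiles 150 and 3392 bp, range 30 to 353010 bp), against 1561 bp (451 and 5498 bp) for the 22839 introns of longer U transcripts. The median was 1998 bp in 2-exon FT, 1387 bp in 2-exon BROAD and 1111 bp in 2-exon WHITEHEAD transcripts. Introns under 70 bp were 9.61% of the members' introns (828, Wilson 95% interval 9 to 10.2%), against 2.6%, 2.08%, 0.73% and 1.76% in those 4 classes in turn, and 3.8% of the 40062 distinct introns of the pool. Over introns that the 2 classes do not share, 9.54% (810 of 8490) of the 2-exon introns and 2.53% (575 of 22712) of those of longer U transcripts were under 70 bp, a difference of 7.01 points (two-sided Fisher exact test, adjusted p = 6.37e-138, a comparison chosen after the values were seen). Introns longer than 10 kb were fewer than in longer U transcripts, at 11.9% (1011) against 16.3% (3695), with 15% in the pool. Over all distinct introns of each class the share was 11.8% in the 2-exon U transcripts, against 17% in 2-exon FT, 11.4% in 2-exon BROAD and 7.77% in 2-exon WHITEHEAD transcripts. That difference was -4.36 points (Newcombe 95% interval -5.19 to -3.51, two-sided Fisher exact test, adjusted p = 3.75e-22 over the 15 planned comparisons).

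**Figure D1:**
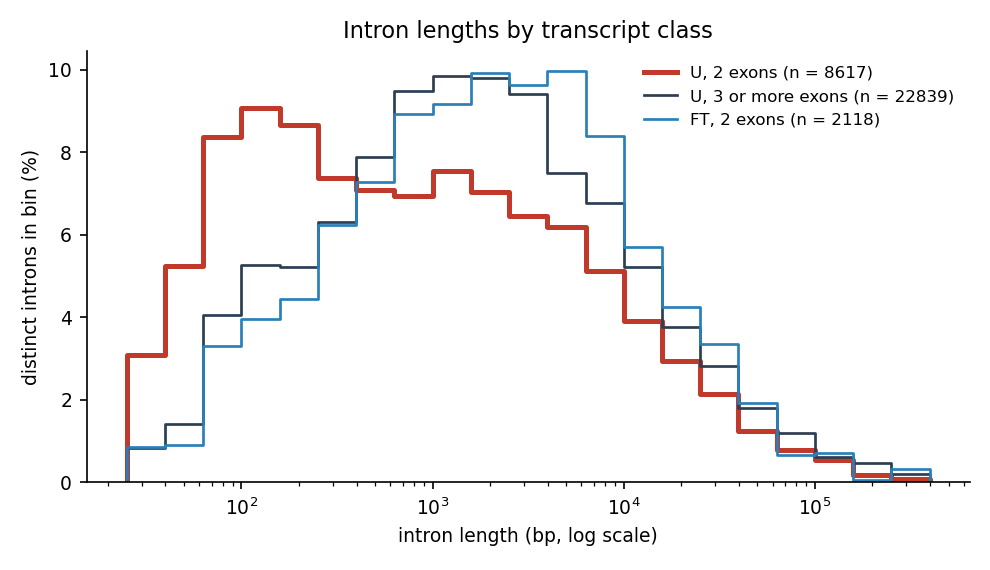
Share of distinct introns (percent) in bins of intron length (bp, log scale) for U transcripts with 2 exons, U transcripts with 3 or more exons and FT transcripts with 2 exons. The line of the 2-exon U transcripts peaks below 200 bp, and those of the other classes peak above 1000 bp.

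The low end depends on where gaps stop being joined. Introns of 30 to 39 bp, just inside the rule, were present in 268 members. Just outside it, 266 U transcripts counted as 1 exon had 2 exons when gaps of 20 to 29 bp were kept, and 63 members had 3 or more exons. At the other end the 5 longest introns belonged to transcripts that could not be named. The longest, of 353010 bp, is in a transcript at chr15:92667159-93020682 on the minus strand whose 5′ and 3′ exons are only 76 and 438 nt. The other introns of that group, from 279983 to 334972 bp, lie on chromosomes 6, 14 and X, the last with 2 of them. No intron of the 5 was present in another class of transcripts.

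The 3′ exon was usually the longer one, as in many spliced RNAs, where the last exon tends to be long. The median was 356 nt (quartiles 179 and 703 nt) for 3′ exons and 177 nt (91 and 342 nt) for 5′ exons. In 2-exon FT transcripts these medians were 829 and 206 nt, and in BROAD transcripts 95 and 86 nt. Among the loci with a single 2-exon U transcript and unequal exons, the 3′ exon was longer in 4562 of 6560 (69.5%), a share 19.5 points above 50% (18.4 to 20.6, two-sided exact binomial test, adjusted p = 8.55e-225). For 2-exon FT transcripts it was 1475 of 1849 (79.8%), so the difference was -10.2 points (-12.3 to -8.04, two-sided Fisher exact test, adjusted p = 1.72e-18). Summed exon length had a median of 602 nt (398 and 1083 nt) in the 2-exon U transcripts, against 925 nt in longer U transcripts, 452 nt in unspliced ones and 1270 nt in 2-exon FT transcripts. At least 200 nt, the usual lower limit for a long noncoding RNA, was reached by 8320 members (96.1%).

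**Figure D2:**
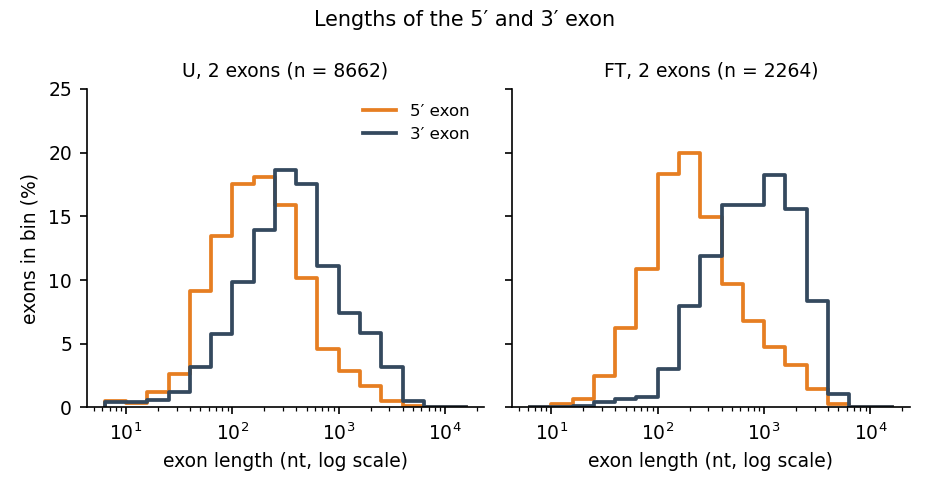
Share of exons (percent) in bins of exon length (nt, log scale), for the 5′ and the 3′ exon of 2-exon U transcripts (left) and 2-exon FT transcripts (right). In both classes the 3′ exons lie to the right of the 5′ exons, with medians of 356 and 177 nt in U and 829 and 206 nt in FT.

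The members with the longest exons could not be named by their structure, which does not show that their genes are missing from the annotation. A transcript at chr8:19783805-19799075 on the plus strand had a 5′ exon of 9833 nt, an intron of 4741 bp and a 3′ exon of 697 nt, 10530 nt in all. The next, at chr12:10103191-10167040 on the plus strand, had the opposite layout, with a 5′ exon of 274 nt, an intron of 55473 bp and a 3′ exon of 8103 nt. The other transcripts among the 5 longest had summed exons of 6909 to 7563 nt. In 3 of these 5 transcripts the 3′ exon was the long one, and in 2 it was the 5′ exon.

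Most introns of the 2-exon U transcripts, like most introns of U names in general, were seen under no other prefix. FT, BROAD and WHITEHEAD transcripts lacked 6864 of the 8617 distinct introns (79.7%, Wilson 95% interval 78.8 to 80.5%), against 67.9% (67.3 to 68.5%) for longer U transcripts and 71.1% of all U introns. Of the 8617 distinct introns, 6763 (78.5%, Wilson 95% interval 77.6 to 79.3%) were absent from FT, BROAD, WHITEHEAD and longer U transcripts. FT transcripts held 1571 (18.2%), BROAD transcripts 253 (2.94%), WHITEHEAD transcripts 134 (1.56%) and longer U transcripts 127 (1.47%), and 41 were in FT, BROAD and WHITEHEAD alike. The same positions on the other strand were an FT intron for 11 (0.128%). FT transcripts held 18.3% (1551 of 8490) of the introns of 2-exon U transcripts that longer U transcripts lack, against 28.3% (6435 of 22712) of the introns of longer U transcripts, a difference of -10.1 points (-11.1 to -9.05, two-sided Fisher exact test, adjusted p = 2.21e-76). The share over all U introns was 25.6%. BROAD or WHITEHEAD transcripts held 3.29% (279) against 5.79% (1314), a difference of -2.5 points (-2.97 to -2, adjusted p = 2.84e-20 by the same Fisher test), with 5.13% over all U introns.

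Sharing differed with intron length. FT transcripts held 1.45% of the members' introns of 30 to under 70 bp, 7.09% of those up to 200 bp, 17.5% of those up to 1000 bp, 27.6% of those up to 10000 bp and 27.4% of those of 10000 bp and over. The 2 longest groups were within each other's intervals (26 to 29.3% and 24.7 to 30.2%). The opposite order was seen for members whose intron lies inside an exon of another transcript of the locus, so that 1 transcript reads through what the other leaves out. This was so for 1132 members (13.1%), and by the same groups of length for 40.3%, 29.1%, 10.4%, 1.54% and 0 of 1021 (upper Wilson bound 0.375%). An exon must be longer than an intron it holds, which limits this count for long introns. Shares by intron length, here and below, were counted for the 2-exon U transcripts only. Whether other classes show the same order is not known.

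Names and annotation tied a share of the members to known genes. No annotation of mm9 was used, so members were named by structure: the 3 lengths of a 2-exon transcript that GENCODE M21 lists on that chromosome and strand, the intron shared with a longer named pool transcript, or the length of the intron and 1 adjoining exon. All 3 lengths were equal for 1374 members (15.9%, Wilson 95% interval 15.1 to 16.6%), against 24 (0.277%) with the annotation of the other strand and 13.7% of all 17605 transcripts of the pool with 2 exons. For 2-exon FT transcripts the share was 46.2% (1046 of 2264), a difference of -30.3 points (two-sided Fisher exact test, adjusted p = 1.14e-186, chosen after the values were seen). Every transcript was counted in that test, and 496 annotated noncoding transcripts were matched by both classes. Its p-value takes the classes as independent, which these shared matches are not. Intron and 1 exon were equal for 3011 members (34.8%), with 170 (1.96%) on the other strand and 26.3% in the pool. Where a named neighbour lay within 50 kb, 407 of 410 members with 3 equal lengths (99.3%) had the same difference between mm9 and GRCm38 positions as that neighbour. For members named by intron and 1 exon alone it was 604 of 616 (98.1%).

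The share with 3 equal lengths was 0.239% (2 of 838) for introns under 70 bp, 6.76% up to 200 bp, 15.7% up to 1000 bp, 23.9% up to 10000 bp and 22.9% for longer introns. On the other strand no group of length was above 0.587%. The members with the shortest introns were therefore the ones that FT transcripts and the annotation held least often, and the ones most often read through by another transcript of the same locus. What lies behind these short introns was not tested, since no genome sequence of mm9 was used to read the letters at their ends.

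**Figure D3:**
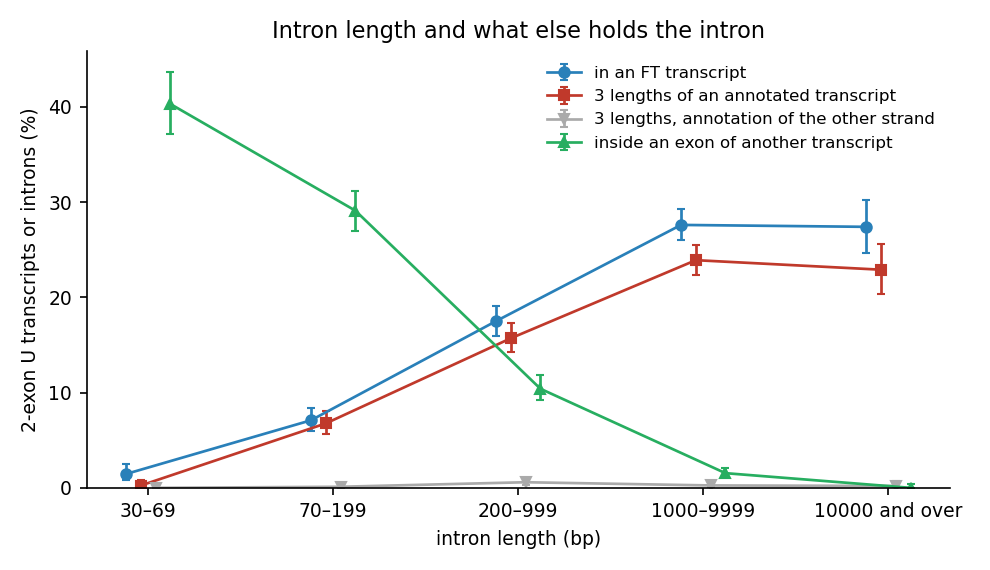
Share (percent, with Wilson 95% intervals) of the 2-exon U transcripts, or of their distinct introns for FT, by intron length (bp). The shares found in FT and matched in 3 lengths are under 2% below 70 bp and above 20% from 1000 bp, the other-strand match stays below 1%, and the share inside another transcript's exon is 40.3% below 70 bp and 1.54% between 1000 and 10000 bp.

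Noncoding genes made up most of the named genes. By 3 lengths or a shared intron, 1578 members were named as 1529 genes, of which 767 (50.2%) have the annotated type lincRNA, 531 (34.7%) antisense, 118 (7.72%) processed transcript, 58 (3.79%) protein-coding and 29 (1.9%) bidirectional promoter RNA. The route by 3 lengths can match only annotated 2-exon transcripts. The types of all such transcripts were not counted, so these shares cannot be read as particular to the members. A further 1395 members matched 1345 genes by intron and 1 exon alone, and 155 of these genes (11.5%) are protein-coding. In all, 2973 members (34.3%) had a name, for 2788 genes. A shared intron named 215 members, and where another route named the same member it gave the same gene in 7 of 7 and 167 of 167 cases. The routes rest on the same intron and the same annotation, so this is not an independent check of the names. Of 88 listed noncoding genes, 79 have an annotation entry and 21 were found, 13 of them by 3 lengths or a shared intron. The share of all annotated noncoding genes found by these routes was not counted, so no list is compared with it.

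Of 39 listed genes that neighbour developmental regulators, 33 have an annotation entry and 11 were found, 5 by the stricter routes. Hottip, which lies beyond the 5′ end of the HoxA cluster and is known to act on Hoxa genes, was present as 2 transcripts. The first, chr6:52212769-52217597 (mm9, plus strand), has a 5′ exon of 90 nt, an intron of 2504 bp and a 3′ exon of 2235 nt. The second, chr6:52212778-52217073, has lengths of 635 nt, 1950 bp and 1711 nt, starts downstream of the first and uses another 5′ splice site before the same 3′ one. Neither intron was in another class. Hotair, a HoxC noncoding RNA known to bind chromatin regulators, was present once at chr15:102774493-102778161 on the minus strand, with exons of 236 and 1770 nt around an intron of 1663 bp that FT transcripts also hold.

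Dlx6os1, an antisense partner of Dlx6, had an intron of 6080 bp, and Hoxb5os, in the HoxB cluster, one of 11427 bp between exons of only 100 and 58 nt. Fendrr, the divergent partner of Foxf1 in lateral mesoderm, was named through an intron of 94 bp shared with FT transcripts. By intron and 1 exon alone, Dlx1as was found in 2 members, with introns of 4461 and 3257 bp, and Hand2os1, Hoxa11os, Hoxd3os1, Pantr1 and BC006965 once each. Of the members in this list, the locus of 1 Dlx1as transcript had a head-to-head partner at 178 bp and that of Hoxb5os had one at 1967 bp.

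The imprinted gene Airn, which silences Igf2r on the paternal chromosome, had 3 members in a locus of 57 transcripts on chromosome 17. The first, chr17:13008797-13023201 (mm9, plus strand), has a 5′ exon of 864 nt and an intron of 13030 bp. The second, chr17:12934196-13023116, starts far upstream with an exon of 95 nt and an intron of 88400 bp, and both enter the same 3′ exon, as the printed junctions show. The third matched by intron (31385 bp) and 1 exon only. Snhg14, a host of small nucleolar RNAs that runs antisense to Ube3a, was named through an intron of 8132 bp shared with FT transcripts, and 2 of the 9 imprinted genes listed were found.

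Of 17 listed stem cell and growth related noncoding RNAs, 15 have an annotation entry and 5 were found. Lncenc1, an RNA abundant in naive embryonic stem cells, had 2 members with the same 123 nt exon and 59312 bp intron and with 3′ exons of 2244 and 2603 nt. They lie in a crowded locus on chromosome 13 that holds 783 transcripts, 5 of them members, and has a head-to-head partner at 745 bp. Panct2, a pluripotency-associated RNA, had exons of 448 and 3401 nt and an intron of 5165 bp that FT and BROAD transcripts also hold. Tug1, a widely expressed noncoding RNA, had an intron of 1033 bp seen in every other spliced class and a 3′ exon of 5739 nt. Lncpint, an RNA induced by the Trp53 tumour suppressor, matched by intron and 1 exon only, as did Platr31.

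Of 3 listed RNAs of nuclear bodies, Neat1, the scaffold of paraspeckles, was found, with 2 members that share introns of 166 and 143 bp with WHITEHEAD and BROAD transcripts. Mir124a-1hg, a host of a neuronal microRNA, was the only one found of 14 listed small RNA hosts, 13 of which have an annotation entry. It had an intron of 412 bp and a head-to-head partner at 234 bp. On the X chromosome, 1 of 6 listed genes was found, 5530601H04Rik, by a transcript with exons of 106 and 141 nt and an intron of 519 bp in a locus of 80 transcripts. Beyond the lists, 6 less studied genes had 2 members each by a shared intron, the largest count for any gene by that route and the same as for Neat1. Among them, Gm29536 had introns of 154539 and 37382 bp, and 5430405H02Rik had 2 transcripts with the same outer ends and introns of 8294 and 8580 bp.

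Within the annotation, the position of each matched noncoding transcript could be read relative to coding genes. The members matched 1299 annotated 2-exon noncoding transcripts in 3 lengths, and 243 of these (18.7%, Wilson 95% interval 16.7 to 20.9%) start within 2 kb of a coding start and run away from it. The share was 20% (201 of 1004) for those matched by FT transcripts, 14.8% (566 of 3834, 13.7 to 15.9%) for those matched by neither U nor FT, and 16.3% of all 5641. The members' transcripts and the FT ones overlap in 496, and no test between these shares was made. A further 409 (31.5%) overlap a coding gene on the other strand, 4 (0.308%) overlap one on the same strand, and 643 (49.5%) lie apart. Of those matched by neither, 26.5% overlap on the other strand, 6.57% on the same strand, and 52.1% lie apart.

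The divergent starts were close to each other. The median distance between the noncoding and the coding start was 178 bp (quartiles 92 and 566 bp), against 207 bp for the divergent transcripts matched by neither. For those matched by FT transcripts it was shorter, at 158 bp (91 and 397 bp). Of the 243, 68 (28%) were under 100 bp, 130 (53.5%) under 200 bp and 174 (71.6%) under 500 bp. They stand for 232 noncoding and 231 coding genes. Shares by distance were not counted for the other divergent transcripts, so the short distances cannot be read as particular to the members.

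**Figure D4:**
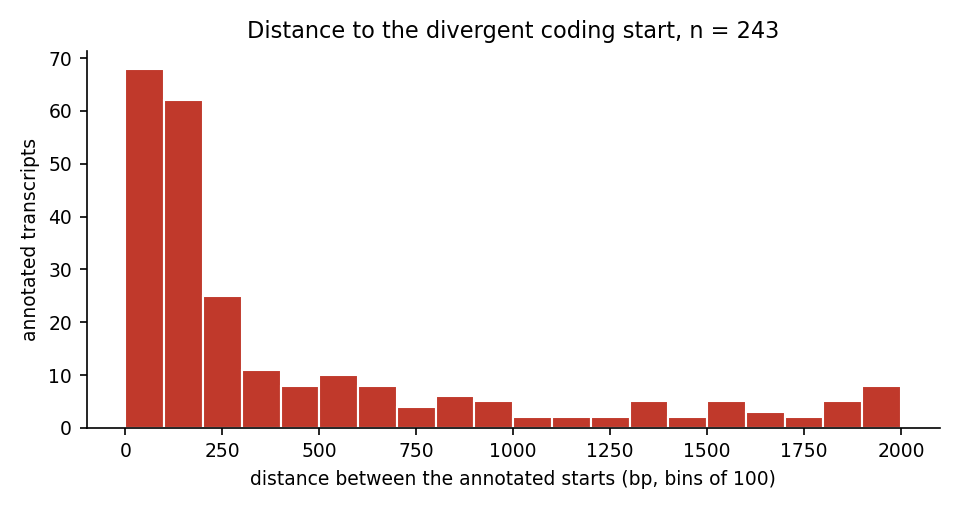
Number of the 243 annotated noncoding transcripts matched in 3 lengths by a 2-exon U transcript that are divergent from a coding gene, by distance between the annotated starts (bp, bins of 100). The bins below 200 bp hold 130 transcripts, and the rest spread thinly up to 2 kb.

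A few pairs with well-known coding partners are given here. They were chosen after the values were seen, from 231 coding genes, and no kind of gene was counted or tested among the partners. Platr23 starts 251 bp from Zfp281, a zinc finger factor of embryonic stem cells, and its intron of 114 bp is followed by a 3′ exon of 2297 nt. Gm14261 starts 897 bp from Sall4, another stem cell factor, and FT transcripts hold its intron of 537 bp. Runx2os1 starts 135 bp from Runx2, the regulator of bone formation, Gm2018 391 bp from Nog, which codes for the BMP antagonist noggin, and 2610016A17Rik 189 bp from Dmrt2, a factor of somite development. Gm14230 starts 207 bp from Tgif2, a TGF-beta corepressor, 4930588K23Rik 1321 bp from Tbx1 and Hottip 1895 and 1904 bp from Hoxa13. Other pairs were E130317F20Rik 82 bp from the splicing regulator Ptbp1, 0610009L18Rik 136 bp from the actin gene Actg1, H3f3aos 144 bp from the histone gene H3f3a and Gm10822 357 bp from the stress-response factor Atf2.

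The letters of the matched transcripts were read from 1295 annotated sequences. The 5′ exon ended in AG in 751 (58%, Wilson 95% interval 55.3 to 60.7%) and the 3′ exon began with G in 656 (50.7%), against 57.5% and 47.6% of all 5627 annotated 2-exon noncoding transcripts with a sequence. The hexamer AAUAAA or AUUAAA, the signal that precedes cleavage and polyadenylation, was searched on the transcript strand in the last 50 bases. It was present in 631 (48.7%, 46 to 51.4%), against 29.4% (27.9 to 30.8%) of the transcripts matched by neither U nor FT and 36.7% of all. The difference was not tested. The share was not counted for transcripts matched by FT, which also matched 496 of the members' 1299. The higher share can therefore not be read as particular to the members. Polyadenylated RNA was 1 of the 2 starting materials, but the list does not separate the libraries and any part of it in this difference was not tested. Median GC content was close to that of all annotated 2-exon noncoding transcripts, at 51.8% against 51.1% in 5′ exons and 46.5% in the 3′ exons of both. The 5′ exon had the higher value in 954 (73.7%), against 70.5% of all. For the divergent transcripts the medians were 56.1% against 55.6% in 5′ exons and 47% against 46.8% in 3′ exons, and for those apart from coding genes they were 50% and 45.8% in both sets. No share of promoter motifs is given, since only 170 of the 231 coding partners (73.6%) have a RefSeq promoter entry.

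In the pool itself, loci were formed from transcripts of 1 strand with overlapping spans, and 7354 of 79052 loci held a member, 6570 of them exactly 1. The loci in which the U transcript with the most exons has 2 exons (6364) were set against those with 3 or more (5321) and with 1 (63066). A partner whose 5′ end faces the locus on the other strand within 2 kb was present for 5.09% (324) of the 2-exon loci, against 5.54% and 5.2%, with 5.16% over all loci. The differences were -0.453 points (-1.28 to 0.361, adjusted p = 0.383) and -0.105 points (-0.648 to 0.488, adjusted p = 0.797, two-sided Fisher exact tests). Facing 3′ ends were present for 5.97% (380), against 5.96% and 6.4%, with 6.15% over all loci. In the same Fisher exact tests those differences were 0.0136 points (-0.856 to 0.872, adjusted p = 1) and -0.425 points (-1.01 to 0.212, adjusted p = 0.294). Neither kind of partner thus separated the classes beyond counting error.

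The partners differed in kind. Of the head-to-head partners of 2-exon loci 28.1% (91 of 324) were spliced, against 17.6% (67 of 380) of the tail-to-tail ones, a difference of 10.5 points (two-sided Fisher exact test, adjusted p = 0.00108, chosen after the values were seen). Both loci of a pair count where each is a 2-exon locus, and a locus can have both kinds of partner. The test takes the counts as independent, which these are not. Partners of the other classes were not counted in this way, so the difference cannot be read as particular to the 2-exon loci. Head-to-head partners lay a median of 532 bp away (quartiles 136 and 1174 bp), and tail-to-tail partners 819 bp (334 and 1359 bp). The closest spliced head-to-head partners lay 1 bp away in 2 cases, both on chromosome 14. There the plus-strand loci named Gm26630 (chr14:7184536-7195762) and Gm48105 (chr14:20324118-20419521) each face a minus-strand locus whose structure matched the single gene Gm36704, so that 1 gene name stands at 2 places and which of them is that gene is uncertain. Next came a locus of 3 members named 4930558C23Rik with a BROAD partner at 6 bp, an unnamed pair of members on X at 6 bp, and Gm17529 on chromosome 12 with a partner at 26 bp.

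Overlap with the other strand set the classes apart. A locus of the other strand overlapped 14.7% (938) of the 2-exon loci, against 28.4% (1509) of the loci with 3 or more exons and 6.35% (4006) of the unspliced ones, with 8.78% over all loci. The differences were -13.6 points (-15.1 to -12.1, adjusted p = 4.6e-72) and 8.39 points (7.52 to 9.3, adjusted p = 5.32e-109, two-sided Fisher exact tests). The length of the loci moves with this order, with median spans of 1977, 11167 and 451 bp, and its part in the result was not tested. With overlap of exons only, the shares were 7.32%, 11.1% and 2.49%. The X chromosome held 4.67% (292 of 6252) of the 2-exon loci on autosomes and X, against 4.91% and 4.46%, with 4.46% over all loci, and the differences of -0.243 points (-1.04 to 0.539, adjusted p = 0.655) and 0.215 points (-0.308 to 0.789, adjusted p = 0.551) did not pass the Fisher test.

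**Figure D5:**
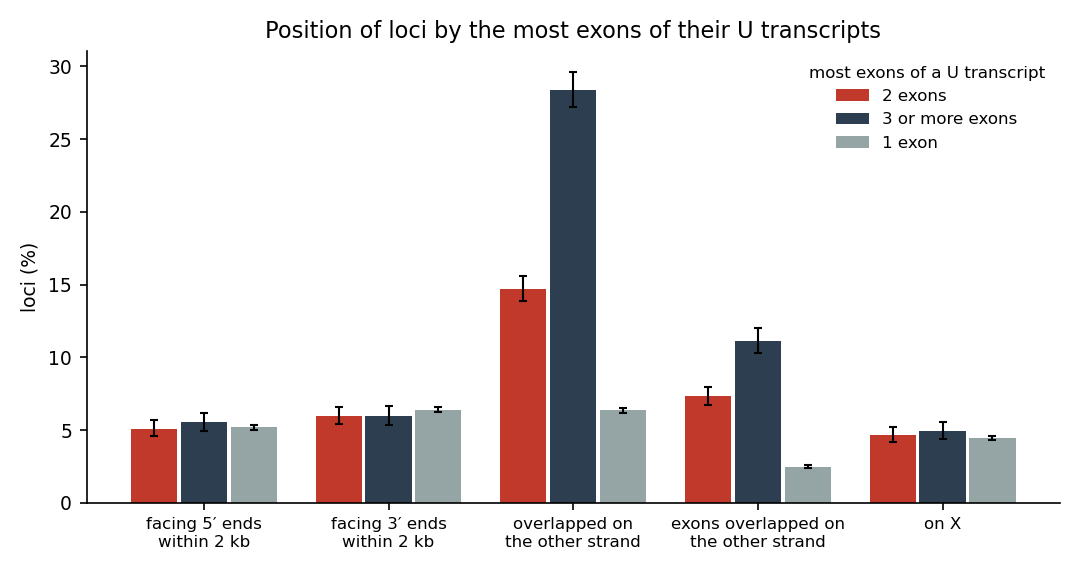
Share of loci (percent, bars with Wilson 95% intervals) by the most exons among their U transcripts: 2 (6364 loci), 3 or more (5321) and 1 (63066). For the X bars, loci on autosomes and X are counted. Facing ends and X do not separate the classes, while overlap with the other strand is 14.7%, 28.4% and 6.35%.

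Many members were not alone. Another transcript lay in the locus of 5130 (59.2%), and 1936 (22.4%) had their intron in another transcript of any class. The 5′ splice site was shared with a different 3′ site in 783 (9.04%), the reverse in 935 (10.8%), and 595 (6.87%) lay wholly inside an intron of another transcript of the same strand. These shares of members were not counted for other classes or for the whole pool, so they cannot be read as particular to the members. A single transcript made up 55.5% (3532) of the 2-exon loci, against 29.5% (1570) of the loci with 3 or more exons and 91.2% (57487) of the unspliced ones, with 84% over all loci. The differences were 26 points (24.3 to 27.7, two-sided Fisher exact test, adjusted p = 3.17e-177) and -35.7 points (-36.9 to -34.4). How the classes were defined fixes part of this, since a locus with more transcripts has more chances to hold one with many exons.

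The locus with the most members was on chromosome 14, at 42030308 to 44129192 on the plus strand, where 52 of 222 transcripts had 2 exons and a median intron of 13514 bp. The next, with 48 of 199, lies on chromosome 12 at 114493041 to 116134882 on the minus strand. Its median intron was 83 bp, and its 8 named members were 5 immunoglobulin V genes and 3 V pseudogenes. A neighbouring locus at 116414656 to 117053867, with 22 of 50, had the same median intron of 83 bp, and its 3 named members were immunoglobulin V genes or pseudogenes too. The V gene names rest on the length of the intron and 1 exon, a route that for introns from 70 to under 200 bp also matched the other strand in 3.97% of members (71, against 367 on the same strand). Many V genes resemble each other in structure and only lengths were matched, so which of them a member is remains uncertain. V genes rearrange in B cells and are built of a short leader exon, a short intron and the V exon. The last 2 of the 5 were on chromosome 11 (18 of 37, median intron 120 bp) and chromosome 13 (15 of 157, median intron 1157 bp, none named). Over autosomes and X, members made up from 6.86% of the transcripts on chromosome 15 to 9.29% on chromosome 12, and 166 (1.92%) lay on unplaced Y sequence, against 2.18% of the whole pool.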

How the data were processed

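From V6.5 embryonic stem cells, polyadenylated RNA and total RNA without most ribosomal RNA went into 1 library each, per the labels' protocols. The submitters' processing notes name TopHat and mm9, with no version given, and the assembly of transcripts is not described in the sources used here. The deposited table is 1 BED list for the whole series, with positions, strand, name and blocks. Its score column, as deposited by the authors, is 0 for every U transcript and was not used.

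Blocks with gaps under 30 bp were joined, loci were overlapping spans of 1 strand, and facing ends counted up to 2000 bp. Differences between shares were tested by two-sided Fisher exact tests, and the exon lengths also by a two-sided exact binomial test, with Benjamini-Hochberg adjustment over the 15 planned comparisons and over 3 comparisons added after the values were seen. Single shares have Wilson and differences Newcombe 95% intervals. Genes were named by exon and intron lengths from GENCODE M21 (GRCm38), with no conversion of coordinates, and the matches by 3 lengths and by intron and 1 exon were adopted after the file was seen. Divergence from coding genes was read within the annotation, within 2 kb. Genes named are those with the most members by a shared intron, the listed genes, and the 5 extremes of intron, exon sum, members per locus and partner distance. Other names are marked as chosen after their values were seen. The members and gene lists were chosen with earlier results of these data known. The 98 pairs with both starts in 1 promoter window were counted without chromosome 18. Procedures were tested on simulated data. Python 3.11.15, numpy 2.4.6, scipy 1.17.1 and matplotlib 3.10.9 were used.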

Additional observations from a re-analysis of the deposited data

How the results depend on the processing

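Each planned comparison was repeated with gaps under 10 and under 70 bp joined, and without loci of more than 50 transcripts. All but the X chromosome comparisons, which use autosomes and X already, were also repeated on autosomes and X only. The facing-end, overlap, intron length, splice site and exon length comparisons were also repeated with their own alternatives. All of these planned comparisons stayed on the same side of the adjusted threshold of 0.05, and each that passed it kept its direction. For head-to-head partners within 5000 bp the difference from loci with 3 or more exons was 0.644 points, and within 1000 bp -0.151 points, neither past the threshold. The overlap with the other strand against loci with 3 or more exons was -3.8 points for exons only, against -13.6 points for spans. Alternatives added after seeing the data gave 1365 to 1375 members with 3 equal lengths. With gaps under 70 bp joined, there were 8090 members and no intron under 70 bp by construction, and with gaps under 10 bp 9010 members, with 14.1% of introns under 70 bp against 4.11% in longer U transcripts. Spliced partners were 33.2% of head-to-head and 14.7% of tail-to-tail ones within 1000 bp, 18.5 points apart, and 26.8% and 18.2% within 5000 bp. No paired analysis was possible because each kind of RNA has 1 library and the list does not separate them. With no counts, the depth behind a member is unknown.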

Other observations

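Further divergent partners of matched 2-exon transcripts are named here, chosen after their values were seen. They include the chromatin and transcription genes H2afz, a histone variant gene, 304 bp from Gm43403, and H2afx, the histone variant gene of DNA damage signalling, 308 bp from Gm48853. Daxx, which codes for a histone chaperone, starts 205 bp from BC051226, Dek 218 bp from 1700026N04Rik, Taf4, a subunit of the general factor TFIID, 207 bp from 4921531C22Rik, and Ep400 232 bp from Gm15559. Of genes used in nerve cells, they include the potassium channel gene Kcnd3, 603 bp from Kcnd3os, and the glutamate receptor gene Grin2b 1172 bp from Gm26653. The heart muscle myosin gene Myh6 starts 1751 bp from Mhrt. No kind of gene was counted or tested among the partners.

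The transcript names group the members as well. The 8662 members carry 7688 name stems before the last dash, 6567 names (75.8%) end in -1, and 2893 members (33.4%) share their stem with other transcripts. Of the 1919 stems with several transcripts, 1912 (99.6%) keep all of them in 1 locus. The plus strand held 4483 members (51.8%, Wilson 95% interval 50.7 to 52.8%).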
